A study of Mus musculus with 12 samples.

Results

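The transcripts of TNF-stimulated wildtype glomeruli were ranked by signal on 3 of the 12 Affymetrix mouse genome arrays of the series, the 3 that carried wildtype RNA. Each of 18194 genes was represented by 1 probe set, the one whose mean over the 12 arrays was highest, and the genes were ordered by the mean of their log2 signal over the 3 wildtype arrays. The choice used the genotype label and the wildtype level, so the order itself is a description and was not tested. All 12 arrays came from intact glomeruli of male mice aged 6 to 8 weeks. They were isolated after perfusion with paramagnetic beads, cultured, serum starved and stimulated for 12 h, in batches of 5000 glomeruli, with murine TNF at 50 ng/ml. The other arrays, 3 per genotype, came from Tnfr1,2-/- glomeruli lacking both TNF receptors, Tnfr1-/- glomeruli (B6.129-Tnfrsf1atm1Mak) and Tnfr2-/- glomeruli (B6.129-Tnfrsf1btm1Mwm). Wildtype was C57BL/6J, and the wildtype and double-deficient mice were bred by crossing the single mutants. No arrays of unstimulated glomeruli were analysed here, so a high level in wildtype is a level after TNF and not an induction. The 3 arrays of a genotype were independent preparations, and how many animals entered each was not stated.

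The glomerulus is the filter of the kidney, a tuft of capillaries lined by fenestrated endothelium, held by mesangial cells and covered from outside by podocytes. TNF is an inflammatory cytokine that signals through the receptors TNFR1 and TNFR2, and the transcription factor NF-κB is its main nuclear effector. NF-κB targets include chemokines, which draw leukocytes, adhesion molecules, which hold them to the vessel wall, and inhibitors such as IκBα, which end the NF-κB signal. Genes of protein synthesis, the cytoskeleton and energy metabolism are highly expressed in most cells.

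Signals were log2 values of the robust multichip average (RMA), a summary over the probes of a probe set after background correction and quantile normalisation. An RMA signal depends on how well its probes bind, so the distance between 2 genes on this scale is not a ratio of transcript numbers. Over the 18194 genes the wildtype mean ran from 2.20 to 13.98 with a median of 7.02. The number of arrays, 3, limited the precision. The median SD over the 3 wildtype arrays was 0.18 for all genes and 0.13 for the 100 highest. In intact tissue, fewer cells of a type and less RNA per cell cannot be told apart.

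Wildtype replicate 3 stood apart from replicates 1 and 2. Across genes, which are not independent replicates, Spearman's rho was 0.994 between replicates 1 and 2, 0.983 between 1 and 3 and 0.985 between 2 and 3. In replicate 3, 708 genes lay more than 1 log2 unit from the mean of the other arrays, against 222 for replicate 1 and 114 for replicate 2. The beta-actin control is measured by one probe set near the 3′ end of the transcript and another near its 5′ end. The 3′ signal exceeded the 5′ signal by 1.83 log2 units in replicate 3, and by 0.87 and 0.67 log2 units in replicates 1 and 2. Of all 12 arrays 5 had such a difference above 1.5 log2 units. They were replicate 3 of every genotype and replicate 2 of Tnfr1,2-/-, at 1.82 log2 units. Tnfr1,2-/- thus had more such arrays than any other genotype. The part of this difference in the levels below was not tested. A level printed as a mean and SD includes replicate 3, and for genes that replicate 3 set apart the array values or the mean without it are added where the result turns on them.

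Promoter stretches are shown for a few inflammatory products and ribosomal protein genes, the groups the results turn on. RefSeq windows of GRCm38.p6, 250 bases before to 50 bases after a transcription start, were matched by symbol for 14453 of the 18194 genes, including 129 of 176 inflammatory products and 44 of 50 ribosomal protein genes. A form of the NF-κB site, GGG and TTTCC with any 2 bases between them, was searched on both strands. The capitals mark the matches, read on the coding strand of the gene, where GGAAA and CCC with 2 bases between them are the same site on the opposite strand.
Nfkbia, chr12:55492657-55492686, minus strand: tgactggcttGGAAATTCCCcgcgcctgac
B2m, chr2:122147551-122147580, plus strand: actgaaaatgGGAAAGTCCCtttgtaacct
Cxcl1, chr5:90891146-90891193, plus strand: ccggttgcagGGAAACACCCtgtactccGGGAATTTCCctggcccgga
Cxcl2, chr5:90903792-90903840, plus strand: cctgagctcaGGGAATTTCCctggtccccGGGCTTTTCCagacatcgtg
Tnfaip3, chr10:19015403-19015432, minus strand: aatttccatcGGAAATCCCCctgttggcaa
Il6, chr5:30013060-30013089, plus strand: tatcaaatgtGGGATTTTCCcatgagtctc

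Of the genes printed, Tnfaip3 had the match nearest to its start, from 12 to 3 bases before it. Nfkbia had its match 29 to 20 bases before the start and B2m 126 to 117 bases before. Cxcl1 and Cxcl2 had 2 matches each, within 89 to 62 and 97 to 69 bases before the start. These letters stood in 1.89% of all 14453 genes with a window. They stood in 19 of 129 inflammatory products (14.7%), among them 6 of 18 NF-κB components and regulators, 5 of 23 chemokine ligands and 3 of 17 cytokines, and in 0 of 44 ribosomal protein genes. Of the 86 genes with a window among the 100 highest, 4 held them (4.65%), so most leading genes did not. With a looser form, in which the third T may be any base and which includes the stricter one, the shares were 6.16% of all genes, 24.0% of inflammatory products and 2.27% of ribosomal protein genes. A match is a description of the letters in this window and not a bound site.

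Ribosomal protein transcripts are known for starting with a run of pyrimidines, the 5′ terminal oligopyrimidine tract, through which their translation is regulated. The capitals mark such a run at the annotated start, a C followed by at least 4 bases that are each C or T.
Rplp2, chr7:141447641-141447662, plus strand: cagcgtcttcCTTTCgccgccg
Rpl38, chr11:114668570-114668591, plus strand: aagcctcgttCTTTCCCCgttc
Rps10, chr17:27635233-27635254, minus strand: gcgcacgcccCTTCCTTTCCag
Rps18, chr17:33955654-33955675, minus strand: cacttccgctCTCTCTTCCaca

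A run of this kind stood at an annotated start of 9 of 44 ribosomal protein genes (20.5%), 8 of the 86 genes with a window among the 100 highest (9.30%) and 424 of all 14453 genes (2.93%). Of those 8 genes, 5 were ribosomal protein genes. A run was counted only if it began at the annotated start base itself, so a gene whose annotated start lay a few bases off was missed. The shares are not the shares of transcripts that start with such a run. The runs lie on the transcript side of the start. The inflammatory products held 1 such start in 129, that of Ptges, the inducible prostaglandin E synthase.

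The highest signal of wildtype glomeruli under TNF belonged to Igfbp7, a secreted insulin-like growth factor binding protein of vessel walls. It measured 14.06, 14.03 and 13.85 log2 in replicates 1, 2 and 3. Nupr1, a small stress-responsive nuclear protein, measured 13.90, 13.79 and 13.96. Tmsb10, a thymosin that binds actin monomers, measured 13.86, 13.81 and 13.90. These 3 genes overlapped over the arrays. Eef1a1, the elongation factor that brings aminoacyl-tRNA to the ribosome, averaged 13.80 ± 0.05 (SD, n = 3), and Fth1, the ferritin heavy chain that stores iron, averaged 13.69 ± 0.22. Rplp2 and Tpt1, the acidic ribosomal protein P2 and the translationally controlled tumour protein, followed at 13.67 ± 0.09 and 13.60 ± 0.01. Tmsb4x, Igfbp5 and Cox6a1, a subunit of cytochrome c oxidase, completed the 10 highest at 13.51 ± 0.10, 13.50 ± 0.11 and 13.47 ± 0.18.

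Nfkbia, which encodes IκBα and whose promoter match is printed above, was the highest inflammatory product, at rank 11. It measured 13.39, 13.39 and 13.55 log2, a spread of 0.16 over the 3 arrays. The genes at rank 12 to 30 lay between 13.43 and 13.20. They were the ribosomal protein genes Rps3a1, Rpl38, Rpl41, Rps2, Rpl7a, Rps14, Rpl19, Rps28, Rps4x and Rpl37a, the translation genes Pabpc1, Naca and Eif5a, the respiratory chain subunit Uqcrb, the matrix protein Sparc, the transcription regulator Tsc22d1, the membrane protein Itm2b, the splicing factor Sf1 and the MHC class I heavy chain H2-K1. H2-K1 measured 13.26, 13.43 and 12.99, lowest in replicate 3. Rpl37a had the widest spread of the 30, at 13.52, 13.40 and 12.80, also lowest in replicate 3.

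**Figure D1:**
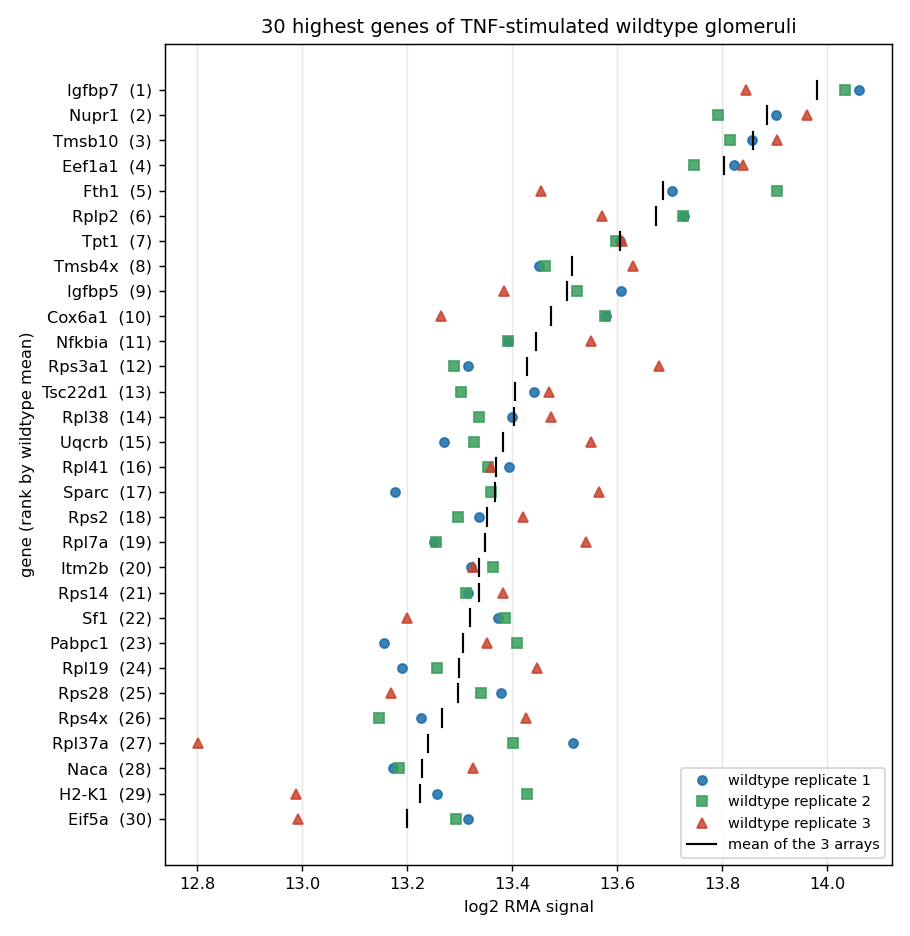
Log2 RMA signal (x axis) of the 30 genes with the highest wildtype mean (y axis, rank in brackets), with a symbol for each of the 3 wildtype arrays and a bar at their mean. Igfbp7 is at 13.98 and Eif5a, at rank 30, is at 13.20, and the symbols of neighbouring genes overlap.

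Neighbours in this order were not separated by the arrays. None of the 29 neighbouring pairs among the 30 highest genes had arrays that did not overlap, and in 24 pairs the gap was below the smaller SD of the pair. The ends of the list were separated in signal, since the lowest Igfbp7 array, 13.85, lay above the highest Eif5a array, 13.32. This spread over arrays leaves out the choice of probe set, so it does not order transcript numbers. For the 80 of the 100 highest genes with several probe sets, the highest and lowest probe set differed by a median of 5.93 log2 units. Of the 10 highest genes 6 were among the 10 highest on each of the 3 arrays. Of the 100 highest genes 91, 87 and 88 were also among the 100 highest of replicates 1, 2 and 3, and 72 genes were among the 100 highest of each array. Without replicate 3, 89 of the 100 remained. The choice of probe set mattered more, as 43 of the 100 were shared when all probe sets of a gene were averaged and 29 when probe sets shared between transcripts were left out. The 100th gene, Morf4l2, stood at 12.7501 and the next, Tm4sf1, at 12.7496, so membership at this border is arbitrary. On the linear scale the 100 highest genes held 9.16% to 9.43% of the summed signal of an array, and the highest 5% of genes, 909 in number, held 38.6% to 39.7%.

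Ribosomal protein genes made up 31 of the 100 highest genes and 11 of the 30 highest. The list held 50 genes by symbol, relatives such as Rpl3l included, with a median of 12.88 log2 against 7.02 for all genes, and 37 of them lay in the highest 5% of all genes. Replicates 1, 2 and 3 had list medians of 12.90, 12.80 and 12.95. The list was not uniform in signal, as Rps16 stood at 2.93 ± 0.14 and Rpl3l at 3.59 ± 0.09, each measured by 1 probe set. Whether the low signals of single genes, in this list and the next ones, came from probes that bind poorly was not tested. Rpl27a (8.92, 9.21 and 10.72), Rps25 and Rpl14 spanned more than 1 log2 unit and were highest in replicate 3. Many probe sets of this family can bind more than 1 transcript, since ribosomal protein genes have numerous processed pseudogenes. Of the 100 highest genes 75 were read by probe sets marked as shared between transcripts or genes, against 20.1% of all genes. When those probe sets were left out, 26 of the 50 ribosomal protein genes could still be ranked and 5 stood among the 100 highest.

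Other genes of protein synthesis lay in the same range. Of 24 translation factors 23 were in the highest 5% and 7 among the 100 highest, with a median of 12.26. Eef1a1, Tpt1, Pabpc1 (the poly(A)-binding protein) and Naca (a nascent-chain chaperone) led, and Eif1a and Eif4b were lowest at 9.77 ± 0.20 and 11.26 ± 0.07. The elongation factor Eef2 measured 12.78, 12.65 and 11.71, lowest in replicate 3. Of 24 chaperones and folding enzymes 21 were in the highest 5%, with a median of 12.15. Hspa5, the chaperone BiP of the endoplasmic reticulum, measured 12.92, 12.87 and 12.88. Hspa8 averaged 12.88 ± 0.13, Ppib 12.79 ± 0.33 and the chaperonin subunit Cct2 12.53 ± 0.19, while Pdia4 and Dnajb1 were lowest at 8.30 ± 0.30 and 10.58 ± 0.16. No member of the chaperone list spanned more than 1 log2 unit over the wildtype arrays.

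Of 70 genes of oxidative phosphorylation 48 were in the highest 5%, with a median of 11.52. Cox6a1, Uqcrb, the ATP synthase subunit Atp5g3 at 13.06 ± 0.07 and Cox5b at 12.82 ± 0.10 were the highest, and Cox7c at 5.99 ± 0.38 and Ndufb4 at 4.34 ± 0.10 the lowest. Cox8a measured 11.68, 11.56 and 10.44. Of 12 glycolysis genes 6 were in the highest 5%. Gapdh, here read by a control probe set of the array, measured 13.13, 13.06 and 12.71, with the lowest value in replicate 3. Pgk1 averaged 12.51 ± 0.06 and Aldoa 12.50 ± 0.11. The phosphofructokinase Pfkp and the hexokinase Hk2 were lowest at 8.76 ± 0.06 and 8.79 ± 0.39. Hk1 and Pfkl averaged 9.86 and 10.10 over the 3 arrays and 10.32 and 10.525 without replicate 3. The pyruvate kinase gene Pkm measured 12.63, 12.49 and 10.999, the widest span of all genes among the 500 highest.

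Cytoskeletal genes had a median of 12.23 over 32 members, and 24 of them were in the highest 5%. Behind the thymosins stood Actg1, cytoplasmic gamma-actin, at 13.14 ± 0.07 and Vim, the intermediate filament protein of mesenchymal cells and podocytes, at 13.10 ± 0.15. The myosin light chain Myl6 (7.82 ± 0.61) and the actin-binding protein Cap1 (8.27 ± 0.82) were the lowest members, at 8.16 and 8.71 without replicate 3. Within this list 8 of 32 genes spanned more than 1 log2 unit, against 6.53% of all genes, and replicate 3 was the lowest array for 7 of the 8. Cap1, Myl9 and Pfn1, the last the actin-binding profilin, had the widest spans, and Pfn1 measured 12.85, 12.78 and 11.58.

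Matrix genes had a lower median, 10.002 over 42 members, but Igfbp7, Sparc and Ccn2 were among the 100 highest. Ccn2, connective tissue growth factor, measured 13.14, 13.22 and 13.11. Mgp, the matrix Gla protein that limits calcification, averaged 12.67 ± 0.11. Col4a1, Col4a2 and Col4a4 were named after their values were seen. Col4a1 and Col4a2, the chains of the widespread collagen IV network, stood at 12.51 ± 0.08 and 11.92 ± 0.30. Col4a4, a chain of the mature glomerular basement membrane, stood at 11.36 ± 0.06. Lama2 at 5.62 ± 0.14 and Fbln2 at 5.74 ± 0.52 were the lowest. Lama5, a laminin chain of the glomerular basement membrane, measured 10.86, 10.68 and 8.80, and the matricellular proteins Thbs1 and Tnc spanned 1.89 and 1.46.

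Of 18 genes of iron storage, lysosome, annexins and S100 proteins 15 were in the highest 5%, with a median of 12.18. Fth1 led, and the lysosomal proteases Ctsl and Ctsb and the galectin Lgals1 followed at 13.08 ± 0.15, 13.08 ± 0.28 and 12.90 ± 0.18. The lowest members were Ctsa at 10.75 ± 0.20 and S100a10 at 11.08 ± 0.13. Ctsd, the aspartic protease of lysosomes, measured 11.53, 11.70 and 10.21, and the sphingolipid activator Psap 12.25, 12.45 and 11.37, both lowest in replicate 3.

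The labelled tissue was checked against the markers of its cells. Nphs1, nephrin of the podocyte slit diaphragm, measured 8.74, 8.37 and 7.86 log2 in the wildtype arrays. Pecam1, a junction protein of endothelium, measured 9.90, 9.34 and 7.58. Pdgfrb, the receptor of mesangial cells and pericytes, measured 11.63, 11.80 and 12.41. All 3 markers were above 7.02, the median of all genes, on each wildtype array, with Pdgfrb at rank 340 and Pecam1 and Nphs1 at ranks 5069 and 6574. Pecam1 and Nphs1 were lowest and Pdgfrb highest in replicate 3. Without replicate 3 Pecam1 averaged 9.62 and Nphs1 8.555.

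Of 24 listed podocyte genes 21 were measured, and all 21 lay above the median of all genes. The list median was 10.36, and a gene at the middle of the list stood above 89.3% of all genes. Podxl, podocalyxin of the podocyte surface, measured 13.29, 13.01 and 13.27 and ranked 32. Actn4, an actin crosslinker of the foot processes, measured 12.75, 12.52 and 11.61. Clic5 and the receptor phosphatase Ptpro averaged 11.65 ± 0.30 and 11.53 ± 0.31. The transcription factors Lmx1b at 7.93 ± 0.41 and Dach1 at 7.68 ± 0.14 were the lowest podocyte genes, and Nphs1 was the third lowest of the 21. Actn4 and Cdkn1c, a cell cycle inhibitor of mature podocytes that measured 11.49, 11.59 and 10.44, were the podocyte genes that spanned more than 1 log2 unit.

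Endothelial markers were lower, with a median of 8.95 over 22 genes, and none was in the highest 5%. Plat, tissue plasminogen activator, measured 11.28, 10.81 and 11.07. Emcn, endomucin, averaged 10.68 ± 0.18, Esam 10.41 ± 0.54 and Eng, endoglin, 10.35 ± 1.02. Vwf, von Willebrand factor, was at 3.27 ± 0.10 and Nos3, endothelial nitric oxide synthase, at 6.96 ± 0.58, the lowest 2 of the list. Without replicate 3 Esam averaged 10.71, Eng 10.94 and Nos3 7.203. Of the endothelial markers 9 of 22 spanned more than 1 log2 unit, against 6.53% of all genes. Replicate 3 was lowest for 6 of them and highest for 3. Tie1 measured 8.36, 7.49 and 5.90, Eng 11.02, 10.85 and 9.18, while Flt1, a VEGF receptor, measured 7.23, 6.79 and 8.15. The list median was 8.95 without replicate 3 as well.

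Mesangial and smooth muscle markers had a median of 9.45, and of 9.93 without replicate 3. Rgs5, a pericyte regulator of G-protein signalling, measured 12.42, 12.48 and 12.31. Agtr1a, the angiotensin II receptor, averaged 11.83 ± 0.16 and Tagln, transgelin, 11.74 ± 0.52. Thy1 at 4.77 ± 0.09 and Cnn1 at 5.28 ± 0.87 were the lowest of the 16 genes. Des, desmin, measured 10.38, 10.06 and 7.80, the widest span of this list, and Cnn1, calponin, and the adhesion molecule Mcam spanned 1.65 and 1.42 log2 units.

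Tubular markers were mostly dim. Of 16 tubular markers 11 were below 6 log2, a level under which 7319 of all 18194 genes lay, and the list median was 5.08. Cdh16, kidney cadherin, measured 9.17, 7.69 and 7.81, and Fxyd2, the gamma subunit of the Na,K-ATPase, 8.82, 7.14 and 8.32. Kap, the androgen-regulated kidney protein, averaged 7.32 ± 0.18. Umod, the uromodulin of the thick ascending limb, measured 7.17, 5.75 and 7.49. Cdh16, Fxyd2 and Umod were lowest in replicate 2. The proximal tubule receptor Lrp2 was at 4.02 ± 0.68 and Calb1 at 3.36 ± 0.18.

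Markers of the parietal epithelium, which lines Bowman's capsule, were higher. Their median was 8.35 over 7 genes, 5 of them above the median of all genes and 1 below 6 log2. Cd24a, a surface glycoprotein, averaged 11.30 ± 0.39 and was in the highest 5%. The tight junction protein Cldn1 averaged 9.78 ± 0.13 and the transcription factor Pax8 8.66 ± 0.61, with 8.94 for Pax8 without replicate 3. The keratins Krt8 (9.07, 7.52 and 8.47) and Krt18 (8.29, 6.58 and 8.32) and the lowest members Prom1 (7.24, 5.51 and 6.92) and Krt19 (5.64 ± 0.47) were lowest in replicate 2. Of the 7 genes 4 spanned more than 1 log2 unit. The authors describe glomeruli isolated in this way as lacking Bowman's capsule. Which cells gave the signals of these markers was not tested.

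Leukocyte markers differed by type. Of 15 macrophage markers 9 were above the median of all genes, led by Lyz2, lysozyme, at 11.84 ± 0.33. The complement component C1qb followed at 9.17 ± 0.75, the adaptor Tyrobp at 9.14 ± 0.38 and the lysosomal protein Cd68 at 9.06 ± 0.79. Replicate 2 was the highest array for Lyz2, C1qb, Tyrobp and Cd68. Without replicate 3, in which both were lowest, C1qb averaged 9.55 and Cd68 9.45. Itgam was at 4.57 ± 0.52 and Cx3cr1 at 4.99 ± 0.12. Lyz1, named after its level was seen, stood at rank 95, and its transcript is nearly identical to that of Lyz2, so the 2 genes may share signal. None of 9 neutrophil markers was above the median of all genes, with S100a9 at 4.21 ± 0.11 and Mpo at 3.87 ± 0.27 lowest. The antimicrobial peptide gene Camp was their highest at 6.39 ± 0.42, before Csf3r at 5.47 ± 0.19, S100a8 at 5.003 ± 0.26 and Ltf at 4.85 ± 0.21. Of 10 lymphocyte markers only Zap70, at 8.85 ± 0.26, was above it. Cd79a of B cells was at 6.54 ± 0.26, and the T cell genes Cd3e, Cd4, Cd3g and Cd8b1 lay between 6.36 and 4.23. The red blood cell genes Alas2, Slc4a1 and Hba-a1 were at 4.07 ± 0.18, 3.89 ± 0.09 and 3.77 ± 0.20.

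Markers listed for fibroblasts were high. Pdgfra, which is also expressed by mesangial cells, measured 12.33, 12.62 and 12.34 and ranked 162. Col1a2 averaged 11.81 ± 0.30, Col3a1 10.83 ± 0.29 and Dcn, decorin, 10.67 ± 0.66, while Col1a1 stood at 6.91 ± 0.69 and Dpt at 6.13 ± 0.29. The part of these cells in the levels of inflammatory products was not tested.

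**Figure D2:**
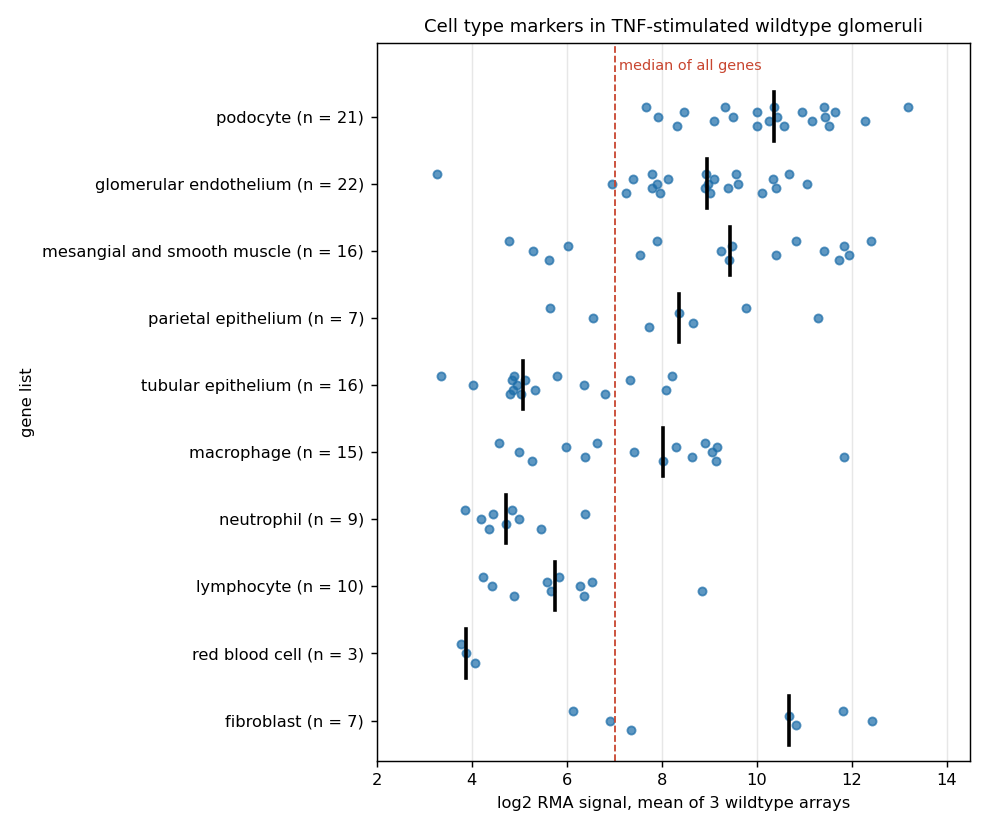
Mean log2 RMA signal over the 3 wildtype arrays (x axis) of the measured genes of 10 cell type lists (y axis), with a point for each gene, a bar at the list median and a dashed line at the median of all genes, 7.02. The podocyte list, median 10.36, lies wholly above the line, and the neutrophil list, median 4.71, wholly below it.

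Some inflammatory products reached the range of the housekeeping genes. Of 191 listed products 176 were measured, 118 of them were above the median of all genes, 30 were in the highest 5% and 5 were among the 100 highest. Those 5 were Nfkbia, H2-K1, the mitochondrial superoxide dismutase Sod2, the MHC class I light chain B2m and the heavy chain H2-D1. A place among these genes is a level and not a response to TNF. H2-K1, B2m and H2-D1 had log2 changes from wildtype of -0.35, -0.18 and -0.16 in Tnfr1-/- glomeruli. In Tnfr1,2-/- glomeruli the changes were -1.04, -0.59 and -0.94. The 10 lists differed in level. Their medians ran from 5.80 for cytokines and growth factors to 11.50 for MHC class I and the immunoproteasome.

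Chemokine ligands were divided. Their median was 6.68 over 33 genes, below that of all genes, but 4 of them were in the highest 5%. Ccl2, the monocyte chemoattractant, measured 12.51, 12.75 and 12.35 log2 and ranked 133. Cxcl10, a ligand of CXCR3 on T cells, measured 12.09, 12.16 and 12.47. Cxcl1 and Cxcl2, which attract neutrophils, averaged 12.18 ± 0.17 and 11.51 ± 0.25. Cxcl1 was measured by 3 probe sets with wildtype means between 10.4 and 12.2. By signal the arrays of Ccl2 overlapped those of Cxcl10 but lay above those of Cxcl1, and all 3 genes lay above Cxcl2. These are distances between probe sets and not ratios of transcript numbers. The eosinophil chemoattractant Ccl11 at 3.10 ± 0.15 and Ccl12 at 3.50 ± 0.14 were the lowest. Ccl20, Cxcl13 and Ppbp spanned 1.66, 1.37 and 1.19 log2 units.

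Cytokines were low beside the chemokines. Csf1, the macrophage growth factor, measured 10.71, 10.66 and 10.08 and ranked 1771, and none of the 24 genes was in the highest 5%. Lif averaged 8.94 ± 0.38, and Il6 measured 8.29, 8.47 and 9.05, while Il11 averaged 8.60 ± 0.52. Tnf, named outside the rule as the gene of the stimulus, stood at 6.65 ± 0.34, and Ifng at 2.82 ± 0.04 and Il12b at 3.72 ± 0.07 were the lowest. The signals of Tslp, Il34 and Il1a spanned 1.75, 1.52 and 1.10 log2 units, with Tslp highest and Il34 lowest in replicate 3.

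Among adhesion molecules Vcam1, the endothelial ligand of integrin VLA-4, measured 12.12, 12.38 and 12.24 and ranked 219. Icam1, a ligand of the leukocyte integrin LFA-1, measured 11.72, 11.95 and 11.20. The junction protein F11r and Alcam averaged 10.84 ± 0.18 and 9.89 ± 0.12. The selectins, which mediate rolling, were the lowest, with Selp at 5.88 ± 0.41 and Sele at 4.40 ± 0.41. Madcam1 measured 8.99, 9.03 and 7.38, and Jam2 spanned 1.17 log2 units.

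Complement and acute phase genes also had single members of high level. Haptoglobin, Hp, which binds free haemoglobin, measured 12.42, 12.36 and 12.35 and ranked 176. Ceruloplasmin, Cp, a copper ferroxidase, measured 11.41, 11.83 and 12.57, and its 8 probe sets had wildtype means between 4.1 and 11.9. The metallothioneins Mt1 and Mt2 averaged 11.43 ± 0.22 and 11.16 ± 0.16. The serum amyloid gene Saa3 measured 9.99, 11.03 and 11.45 and Lcn2, lipocalin that binds bacterial siderophores, 9.30, 7.49 and 8.57. Orm2 at 2.89 ± 0.10 and Orm1 at 3.45 ± 0.21, typical liver acute phase genes, were the lowest. Of 14 complement genes the serine protease C1s1 was highest at 11.05 ± 0.10, with the C1 inhibitor Serping1 at 10.67 ± 0.21, factor B (Cfb) at 10.55 ± 0.37 and the membrane inhibitor Cd59a at 10.03 ± 0.34. The receptor C5ar1 and factor I (Cfi) were lowest at 5.69 ± 0.92 and 5.20 ± 0.19. All 4 complement genes that spanned more than 1 log2 unit were lowest in replicate 3, without which C5ar1 averaged 6.21, and C5ar1, C1qb and C1qc spanned 1.76, 1.49 and 1.13 log2 units.

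The antigen presentation list stood highest. All 11 measured genes were above the median of all genes, and 6 were in the highest 5%. H2-K1 averaged 13.22 ± 0.22, B2m 13.09 ± 0.17 and H2-D1 13.03 ± 0.38. The heavy chains belong to a family of near-identical genes, so their signals may be shared. The peptide loading protein Tapbp averaged 12.01 ± 0.23, and the peptide transporter Tap1 was lowest at 8.35 ± 0.16 with the immunoproteasome subunit Psmb9 at 8.61 ± 0.38. No member spanned more than 1 log2 unit. Interferon-induced proteins had a median of 9.12 over 21 genes. The guanylate-binding protein Gbp2 measured 12.08, 12.39 and 12.33, the transcription factor Irf1 11.28, 11.60 and 10.78, and Ifi47 and Gbp3 averaged 10.82 ± 0.21 and 10.80 ± 0.14. The antiviral genes Mx1 at 3.66 ± 0.22 and Mx2 at 5.81 ± 0.13 were the lowest, and Ifit1 spanned 1.11 log2 units.

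Components and regulators of NF-κB had a median of 10.04, and 20 of 21 were above the median of all genes. Behind Nfkbia stood Tnfaip2 at 12.43 ± 0.03, the subunit Rela at 11.84 ± 0.51 and Tnfaip3, the ubiquitin-editing inhibitor A20, at 11.50 ± 0.20. The subunit Rel (6.62 ± 0.25) and the endoribonuclease Zc3h12a (7.84 ± 0.28) were lowest. Nfkb2 measured 10.54, 10.44 and 8.92, the only member to span more than 1 log2 unit. Matrix proteases and their inhibitors had the same median, 10.04. Timp2 averaged 11.97 ± 0.24, Adamts1 11.57 ± 0.13, stromelysin Mmp3 11.32 ± 0.40 and Timp1 11.25 ± 0.47, with Mmp8 at 4.55 ± 0.28 and Mmp19 at 5.22 ± 0.18 lowest. Mmp10 and Mmp2 spanned 1.27 and 1.18 log2 units.

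Of 9 enzymes for itaconate, nitric oxide, prostanoids and oxidants Sod2 was highest, at 12.97, 13.14 and 13.29. The haem oxygenase Hmox1 measured 10.80, 11.43 and 10.01, and cyclooxygenase 2 (Ptgs2) and the itaconate synthase Acod1 averaged 9.93 ± 0.38 and 9.41 ± 0.12. Ido1 at 4.0 ± 0.16 and the inducible nitric oxide synthase Nos2 at 5.77 ± 0.26 were lowest. Ptges spanned 1.14 log2 units.

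**Figure D3:**
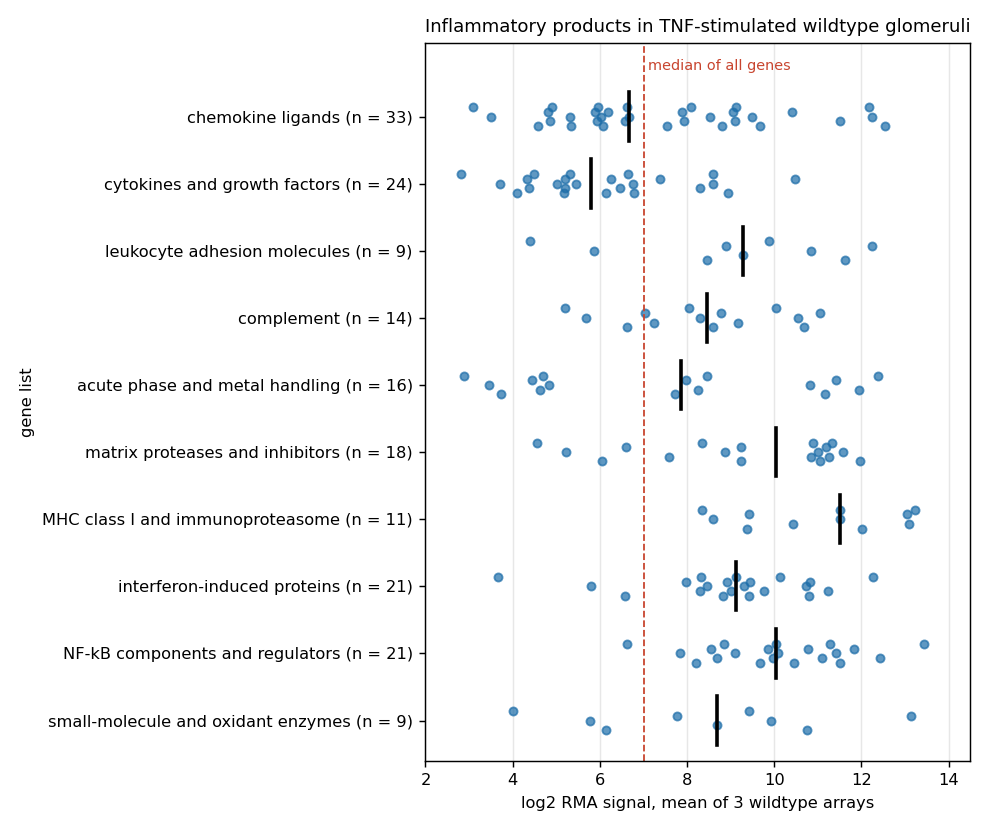
Mean log2 RMA signal over the 3 wildtype arrays (x axis) of the measured genes of 10 lists of inflammatory products (y axis), with a point for each gene, a bar at the list median and a dashed line at the median of all genes, 7.02. The antigen presentation list has the highest median, 11.50, and the cytokine list the lowest, 5.80, while chemokines run from 3.10 to 12.54.

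The receptor-deficient glomeruli were the other samples under TNF. The deleted genes were checked first. Tnfrsf1a, which encodes TNFR1, measured 9.61, 9.14 and 9.11 log2 in Tnfr1,2-/- and 9.80, 10.18 and 9.24 in Tnfr1-/- glomeruli, against 10.70, 10.73 and 10.23 in wildtype. Tnfrsf1b, which encodes TNFR2, measured 5.51, 5.37 and 5.57 in Tnfr1,2-/- and 5.66, 4.95 and 5.38 in Tnfr2-/- glomeruli, against 7.77, 7.71 and 7.41 in wildtype. Every array lacking a receptor was below every wildtype array for it, although Tnfrsf1a kept a signal in its mutants, and whether its probes lie within the deleted part was not tested. In limma the adjusted p for Tnfrsf1a was 0.0228 in Tnfr1,2-/- and 0.217 in Tnfr1-/- glomeruli, and for Tnfrsf1b 0.00616 in Tnfr1,2-/- and 0.125 in Tnfr2-/- glomeruli.

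Part of the inflammatory products was lower in glomeruli without TNFR1. In limma with Benjamini-Hochberg adjustment over 18194 genes and a limit of 1.5-fold, 52 of 176 products were lower in Tnfr1,2-/- than in wildtype glomeruli, where 0.879% of all genes were called lower, and 1, Timp3, was higher, where 0.418% of all genes were called higher. In Tnfr1-/- glomeruli 45 of 176 were lower, with 0.72% of all genes called lower, and 0 were higher, with 0.484% of all genes called higher. In either direction 1.3% of all genes were called in Tnfr1,2-/- and 1.2% in Tnfr1-/- glomeruli. In Tnfr2-/- glomeruli 0 of 176 were called in limma, and 0% of all genes were called in either direction. The fit did not call the deleted gene Tnfrsf1b there either, at an adjusted p of 0.125 in limma, so a lack of calls does not show a lack of change. With a different test on the same arrays, the paper reported genes lower in Tnfr2-/- glomeruli, among them Tnfrsf1b and Rab6b. The products had a median log2 change of -0.59 in Tnfr1,2-/- glomeruli, where that of all genes was -0.0012. The medians were -0.42 for products and -0.0049 for all genes in Tnfr1-/- glomeruli, and 0.04 and 0.0007 where TNFR2 alone was lacking. The comparisons share the wildtype arrays, and the lists were drawn up with results of these arrays known. Without wildtype replicate 2 the counts of lower products were 33 in Tnfr1,2-/- and 29 in Tnfr1-/- glomeruli, and with only the 6 arrays compared the Tnfr1-/- count was 27.

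By list, 11 of 33 chemokine ligands were lower in Tnfr1,2-/- and 11 in Tnfr1-/- glomeruli. The shares of all genes called lower were 0.879% and 0.72%, for this list and the next ones. Of 21 NF-κB components and regulators 8 were lower in Tnfr1,2-/- and 6 in Tnfr1-/- glomeruli, and of 11 antigen presentation genes 6 and 4 were lower. Interferon-induced proteins were lower in 6 and 4 of 21 genes, and the cytokines in 3 and 2 of 24. Among ribosomal protein genes and genes of oxidative phosphorylation, 0 of 50 and 0 of 70 were called in any of the 3 comparisons by limma. Of all genes 1.3%, 1.2% and 0% were called in Tnfr1,2-/-, Tnfr1-/- and Tnfr2-/- glomeruli, so lists of this size could lack calls at that share. The median log2 changes of these lists lay between -0.13 and 0.02.

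The products with the highest wildtype levels were chosen on the same wildtype arrays, so their changes are given as values. Ccl2 measured 7.30, 6.67 and 6.63 log2 in Tnfr1,2-/-, 6.78, 7.84 and 6.30 in Tnfr1-/- and 12.72, 12.77 and 12.04 in Tnfr2-/- glomeruli, against 12.51, 12.75 and 12.35 in wildtype. Its rank was 9328 where both receptors were lacking, 9192 without TNFR1 and 145 without TNFR2, against 133 in wildtype. Hp measured 8.84, 8.90 and 8.16 in Tnfr1,2-/-, 8.46, 8.41 and 8.54 in Tnfr1-/- and 12.43, 12.58 and 12.03 in Tnfr2-/- glomeruli, against 12.42, 12.36 and 12.35 in wildtype. For both genes the arrays without TNFR1 were far below all others, and the Tnfr2-/- arrays overlapped wildtype. Vcam1 measured 7.65, 6.89 and 8.50 in Tnfr1,2-/- and 6.95, 8.53 and 7.63 in Tnfr1-/- glomeruli, against 12.12, 12.38 and 12.24 in wildtype. Cxcl10 measured 7.54, 8.19 and 7.76 in Tnfr1,2-/- and 7.56, 9.16 and 7.72 in Tnfr1-/- glomeruli, against 12.09, 12.16 and 12.47 in wildtype. The arrays without TNFR1 were again below all wildtype arrays for both genes. Icam1 measured 7.53, 7.75 and 7.82 in Tnfr1,2-/- and 7.93, 8.87 and 8.04 in Tnfr1-/- glomeruli, against 11.72, 11.95 and 11.20 in wildtype.

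Sod2, Nfkbia and H2-K1, the leading products among the 100 highest genes, are likewise given by array, without a test. Sod2 measured 10.86, 11.51 and 11.57 in Tnfr1,2-/- and 11.45, 11.85 and 11.50 in Tnfr1-/- glomeruli, against 12.97, 13.14 and 13.29 in wildtype, with no overlap. Nfkbia measured 12.54, 12.85 and 12.79 in Tnfr1,2-/- and 12.56, 13.00 and 12.93 in Tnfr1-/- glomeruli, against 13.39, 13.39 and 13.55 in wildtype. It stood at rank 93 in Tnfr1,2-/- and 83 in Tnfr1-/- glomeruli, against 11 in wildtype. H2-K1 measured 12.69, 12.08 and 11.77 in Tnfr1,2-/- and 12.90, 13.53 and 12.18 in Tnfr1-/- glomeruli, against 13.26, 13.43 and 12.99 in wildtype, and the Tnfr1-/- arrays overlapped those of wildtype. B2m and H2-D1 had log2 changes of -0.59 and -0.94 in Tnfr1,2-/- and of -0.18 and -0.16 in Tnfr1-/- glomeruli.

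**Figure D4:**
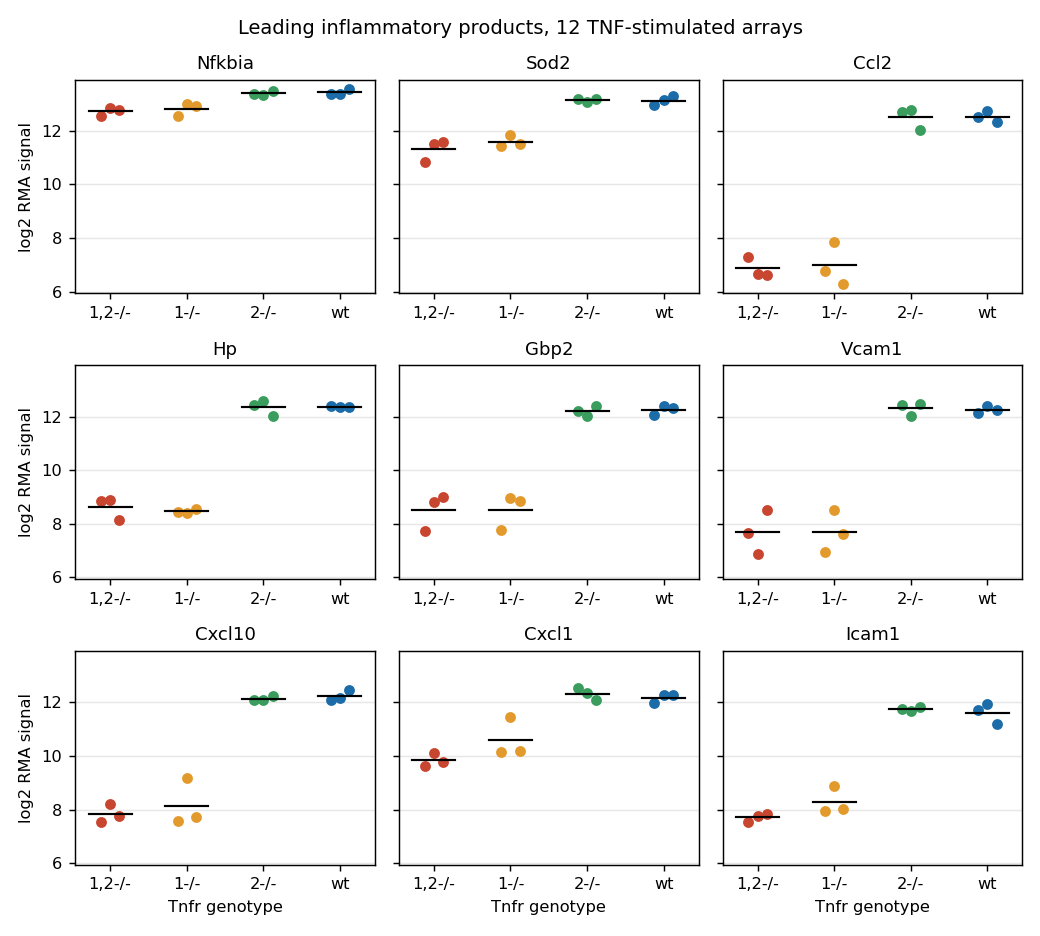
Log2 RMA signal (y axis) of 9 inflammatory products on the 12 arrays, in panels by gene, with 3 arrays per genotype (x axis, 1,2-/- for Tnfr1,2-/-, 1-/- for Tnfr1-/-, 2-/- for Tnfr2-/- and wt for wildtype) and a bar at each mean. Ccl2 lies between 6.30 and 7.84 without TNFR1, against 12.35 to 12.75 in wildtype, and Nfkbia between 12.54 and 13.00, against 13.39 to 13.55.

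Most leading genes were shared between genotypes. Of the 100 highest wildtype genes 84 were among the 100 highest by mean where both receptors were lacking, 87 without TNFR1 and 93 without TNFR2. Ifitm3, an interferon-induced membrane protein outside the lists and named after its values were seen, measured 12.11, 11.84 and 11.66 in Tnfr1,2-/- glomeruli, against 13.09, 13.23 and 12.87 in wildtype.

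The spread between wildtype arrays depended on the level. The median span over the 3 arrays was 0.25 log2 units for the 100 highest genes, 0.28 for the next 400 and 0.27 for the 8194 lowest, with medians from 0.37 to 0.47 between them. Of the 500 highest genes 15 spanned more than 1 log2 unit, and replicate 3 was lowest for 12 of them and highest for 2. After Pkm the widest spans belonged to Gm13889 (12.21, 12.41 and 10.815), the receptor tyrosine kinase Axl (12.62, 12.41 and 11.31), Pfn1 and the autophagy receptor Sqstm1 (13.14, 13.35 and 12.10). Tpm1, Actn4 and Itgb1 were also lowest in replicate 3. Cp and the poly(A)-binding protein Pabpn1 (12.14, 12.75 and 13.29) were highest there.

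**Figure D5:**
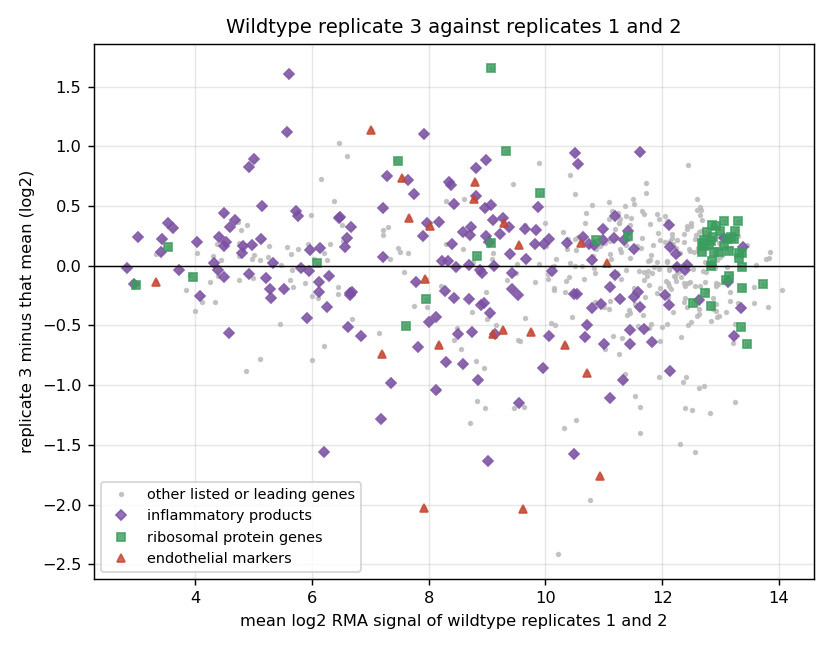
Difference of wildtype replicate 3 from the mean of replicates 1 and 2 (y axis, log2) against that mean (x axis, log2 RMA signal) for the listed and leading genes, with endothelial markers, ribosomal protein genes and inflammatory products marked. Pecam1, Tie1 and Eng are the 3 endothelial markers lowest on the y axis. The ribosomal protein gene highest on the y axis is Rpl27a, at 8.92, 9.21 and 10.72 log2 in replicates 1, 2 and 3.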

How the data were processed

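Affymetrix mouse genome arrays of 12 glomerular RNA preparations were used as deposited. The authors normalised all 12 arrays together with RMAExpress, and the deposited values are log2 RMA signals per probe set. No detection calls were used, and the number of arrays limits the precision. The annotation of the platform gave a single symbol for 34958 of 45101 probe sets. The 932 with more than 1 symbol and the 9211 with none were left out, and no other column of sample values was present. At or above the level of the 100th gene stood 69 probe sets with several symbols and 26 with none, so some abundant transcripts are missing from the order. Arrays were grouped by the labels. The p-values rest on the spread between preparations within a genotype, pooled over all genotypes and moderated across genes. Genes were compared between genotypes with limma 3.58.1 in R 4.3.3 (all 12 arrays, genotype as the only term, Benjamini-Hochberg adjustment over 18194 genes, called at an adjusted p of 0.05 and a change of 1.5-fold), tested on simulated data. Deviations from the genotype mean correlated with those of the wildtype array of the same replicate number. The correlation was above 0.1 for each number in Tnfr1-/- and Tnfr2-/- (lowest 0.34 and 0.21), but not in Tnfr1,2-/- (-0.13 for number 2). The labels give no pairing, and the fit reported did not use the replicate number. The part of the beta-actin difference in these correlations was not tested. The genes named are the 30 highest, Nphs1, Pecam1 and Pdgfrb, the 4 highest and 2 lowest members of each list, up to 3 members of a list that span more than 1 log2 unit, and the 10 widest spans among the 500 highest genes. The lists, and this choice of arrays, were made with earlier results of these data known. The alternatives tried were the mean of all probe sets, the probe set highest in wildtype, leaving out shared probe sets, the mean of linear signals, leaving out an array, a mean-variance trend, median centring, leaving out genes below 6 log2, the replicate block, a block of array sets by the beta-actin control and a fit of 6 arrays.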

Additional observations from a re-analysis of the deposited data

How the results depend on the processing

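With the mean of all probe sets of a gene, 43 of the 100 highest genes were shared with the order reported, the median podocyte gene stood above 82.5% of all genes (89.3% as reported) and the median endothelial gene above 78.7% (72.3%). With shared probe sets left out, 5 ribosomal protein genes (31) and 29 shared genes were among the 100 highest, and these medians were 90.4% and 66.7%. Leaving out a wildtype array gave 31 to 32 ribosomal protein genes and 27 to 31 inflammatory products in the highest 5% (30), 89 to 96 shared genes, and medians of 88.0% to 89.9% for podocyte, 71.3% to 72.5% for endothelial and 76.3% to 84.6% for mesangial genes (79.0%). The count of lower products was 33 to 54 in Tnfr1,2-/- (52) and 29 to 46 in Tnfr1-/- glomeruli (45) with an array left out, and 27 in Tnfr1-/- with only the 6 arrays compared. The replicate block gave 72 and 57 lower products and 0 in Tnfr2-/- glomeruli, and the block of array sets, chosen after seeing the data, 65 and 59. The log2 change of B2m in Tnfr1-/- glomeruli (-0.18) ran from -0.47 without Tnfr1-/- replicate 2 to 0.10 without Tnfr1-/- replicate 3. The causes were not tested. Arrays give no depth, and for 7319 genes the wildtype mean was below 6 log2.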
